A study of Rattus norvegicus with 18 samples.

Results

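The genes described are those of the voltage-gated, inwardly rectifying, leak and ion-activated potassium channels, the voltage-gated sodium channels and the voltage-gated calcium channels, with their auxiliary subunits. They were taken by name: every non-control probe whose gene name began with Kcn, Scn or Cacn was included, except the epithelial sodium channel names that start with Scnn. This gave 129 of the 35287 gene names on the array, carried by 156 of the 41012 probes, and each gene was represented by its brightest probe over all arrays. RNA came from the proximal stump of the left sciatic nerve of adult male Sprague-Dawley rats after a segment of the nerve had been cut out under anaesthesia, and was hybridized to 18 one-colour Agilent arrays. The 6 groups differ in the time from surgery to tissue collection, which was 0, 0.5, 1, 3, 6 or 9 h, and each holds 3 arrays. The 0 h arrays served as the baseline, and no sham-operated group was part of the series. The number of rats behind each array is not given in the sources used here, so a p-value measures the spread between arrays, which may be technical.

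Potassium channels set the resting potential and end the action potential, sodium channels carry its upstroke, and calcium channels link depolarization to release, contraction and transcription. In a myelinated nerve the sodium channels are gathered at the node of Ranvier and the Kcna channels under the myelin beside it. The nerve trunk holds axons but not the neuronal cell bodies, so that much of its RNA comes from Schwann cells, fibroblasts, vessel walls and immune cells, which carry channels of their own.

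Markers of the labelled tissue were present. All 14 Schwann cell markers were well above background on all 18 arrays, as were all 6 fibroblast and all 7 endothelial markers. Markers of other cells moved in the same hours. The mean level of the neutrophil markers lay between -5.40 and -5.21 on the 0 h arrays and between -1.05 and -0.72 on the 9 h arrays (log2 of the signal relative to the array's 75th percentile, the scale of every level given here), and 6 of 6 tested were higher at 3 h and at 9 h. Of all gene names tested, 15.8% were higher and 15.4% lower at 9 h. Of 10 macrophage markers 2 were higher and 1 was lower at 9 h, and of 12 neuronal markers 4 were higher and 2 lower. Of 14 Schwann cell markers 5 were lower and 0 higher at 9 h, with a mean level of 3.76 to 4 on the 0 h arrays and 3.49 to 3.85 on the 9 h arrays. Of 6 fibroblast markers 5 were lower and 0 higher, with 6.91 to 7.06 and then 6.58 to 6.6. Of 5 pericyte and smooth muscle markers tested, 3 were lower and 0 higher at 3 h, where 6.84% of all gene names were lower. At 9 h 2 of these 5 were lower and 0 higher. The part of all these markers' cells in the channel results was not tested. In bulk tissue, fewer cells of a type and less RNA per cell cannot be told apart. The 0 h and 0.5 h arrays were scanned on 1 day, the 1 h, 3 h and 6 h arrays and 2 of the 9 h arrays on another, and replicate 3 of 9 h on its own day, so scan day and time cannot be told apart in any comparison of 0 h with 1 h or later. For that reason the last 3 time points were also compared with 1 h. No slide held arrays of more than 1 time point, so slide and time cannot be told apart in any comparison, those with 1 h included.

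The probes of the genes on which the results turn are shown first, since each level below was read by 1 such probe. Each probe has 60 bases, and positions are those of the array's own annotation on the rat build rn4. Capitals mark the longest run that the printed bases share with a probe of any other gene name on the array. The runs are 12 to 14 bases long. The probes were not compared with the transcripts of related channels. The first 5 sequences are whole probes, and of the other 4 the first 30 bases are printed. For those 4 the rest of the probe was not searched for shared runs.
Kcna1, chr4:163012003-163012062, minus strand: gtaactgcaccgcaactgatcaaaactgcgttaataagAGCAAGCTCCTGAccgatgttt
Kcna6, chr4:163122829-163122888, minus strand: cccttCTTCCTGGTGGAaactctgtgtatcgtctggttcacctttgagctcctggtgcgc
Scn2a1, chr3:47720286-47720345, plus strand: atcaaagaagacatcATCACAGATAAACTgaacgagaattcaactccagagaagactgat
Kcnk6 (the dimmer of its probes), chr1:84360723-84360782, minus strand: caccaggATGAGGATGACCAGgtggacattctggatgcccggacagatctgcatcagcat
Cacna1d (the next brightest of its probes), chr16:5465138-5465197, minus strand: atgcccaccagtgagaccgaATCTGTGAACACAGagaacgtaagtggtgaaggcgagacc
Kcnh1, chr13:108407705-108407764, plus strand: tGGATGTGGAGAACatgtgggcactccacg
Kcnk2, chr13:105376012-105376071, minus strand: ttcttGAAGGCTGATGTggtgggatgtacc
Kcnn4, chr1:79628697-79628756, plus strand: ctcaagctctgTTGGAAGAGGAGGtgcccg
Scn3b, chr8:43253930-43253989, plus strand: gactcaacgcTCTCTGTGTCAAGtactagg

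Detection was taken before change. A probe counted as detected on an array when the scanner software marked its signal as well above background. Of the 129 genes, 126 were detected on at least 1 array and 57 (44.2%) on all 18, while 60.5% of all gene names on the array were detected on all 18. At 0 h, 81 genes (62.8%) were detected on all 3 arrays, against 70.6% of all gene names, and 34 on none. The voltage-gated potassium channel genes Kcna7, Kcnc1 and Kcnq3 were not well above background on any array. The number detected on all 3 arrays of a time point was lowest at 0.5 h, with 60, then grew to 65, 73 and 79 by 1 h, 3 h and 6 h, and reached 98 by 9 h. All 35287 gene names took the same course, with 21963 at 0.5 h, then 22623, 23396 and 24673, and 26876 at 9 h. The share of all probes well above background ran from 65.9% to 93.5% over the 18 arrays, with the highest value on replicate 1 of 6 h, and its part in these numbers was not tested. On that array 122 channel genes were detected, against 97 and 81 on the other 6 h arrays.

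**Figure D1:**
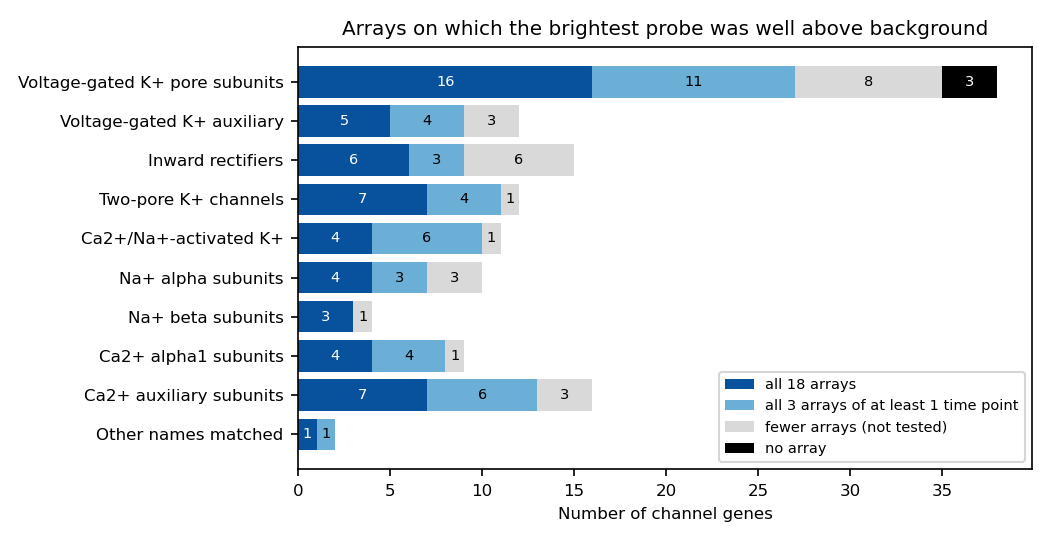
Number of channel genes (horizontal axis) in each family by detection: well above background on all 18 arrays, tested but not on all 18, and not tested. The voltage-gated potassium alpha subunits are the largest family, with 38 genes of which 16 were detected on all 18 arrays and 27 were tested.

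Genes were tested where some time point had its full set of 3 arrays well above background, which held for 99 of the 129 (76.7%) and for 77.1% of all gene names. The 30 genes left out include channels that define parts of the nerve in textbooks. Scn8a, the main sodium channel of mature nodes of Ranvier, was detected on 1 array by its brighter probe and on 2 arrays by the other probe. Kcna4, Kcnj2 and Kcnj10 were detected on 1 array each. The sodium channel gene Scn1a was detected on 3 arrays and the beta subunit gene Scn2b on 4. These genes have no change reported, since at no time point were all 3 arrays well above background. Kcna1 and Kcna2, the juxtaparanodal channels of myelinated axons, were detected on all 18 arrays.

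The moderated F-test of limma over the 6 time points called 33 of the 99 tested channel genes (33.3%), where 34.6% of all gene names tested were called. A call needed p under 0.01 and a Benjamini-Hochberg adjusted p under 0.05 over all probes tested. The channel genes as a set were thus called about as often as the genes of the array. Against 0 h, 4 were higher at 0.5 h (background 4.27%) and 0 lower (background 1.72%). Of these 4, 3 had a mean level under -3. Cacna1i, called there, was well above background on 1 array of 0 h and on none of 0.5 h. At 1 h, 8 were higher (background 3.59%), 3 of them with a mean level under -3, and 0 lower (background 2.04%). At 3 h, 6 were higher (7.15%) and 8 lower (6.84%). By 6 h, 15 were higher (12%) and 11 lower (13%), and at 9 h 16 were higher (15.8%) and 17 lower (15.4%). With 1 h as the reference, 3 h had 7 higher (background 5.58%) and 6 lower (4.57%). The 6 h arrays then had 12 higher (11.4%) and 9 lower (12.6%), and the 9 h arrays 10 higher (11.7%) and 16 lower (13.7%).

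The balance of higher and lower calls depended on how the arrays were scaled. With quantile normalization the 0.5 h arrays had 1 call higher than 0 h and 1 lower, those of 1 h had 7 and 2, those of 6 h had 9 and 15, and those of 9 h had 13 and 21. From 1 h to 6 h there were 10 higher and 12 lower. With the arrays shifted to their median the same times up to 6 h gave 3 and 1, 4 and 1, and 12 and 15, and the step from 1 h to 3 h gave 8 and 4. The deposited log2 matrix gave, for the same 4 times, 1 and 1, 7 and 2, 8 and 15, and 12 and 21. Normexp background correction gave 3 higher and 1 lower (75% higher) at 3 h and 4 and 7 (36.4%) at 9 h against 0 h. Against 1 h, the 3 h arrays had 1 call, which was higher (100%). The 6 h arrays had 3 higher and 3 lower (50%), while for 9 h there were 2 higher and 6 lower (25%). No balance of the whole set is therefore read from these counts. Normexp also called fewer genes, and these genes described below each lost a call against 0 h with it: Kcna3, Kcna6, Kcnd1, Kcng1, Kcnh2, Kcnip3, Kcnip4, Kcnj8, Kcnj11, Kcnj12, Kcnk9, Kcnk10, Kcnk18, Kcnt1, Kcnt2, Scn2a1, Scn3a, Scn7a, Scn9a, Cacna1d, Cacna1i, Cacnb2 and Cacnb4.

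Dim and bright genes had median changes of opposite sign at 6 h. The 62 genes with a mean level under -3 had a median change of 0.46 at 6 h, where all dim genes of the array had 0.29, and the 37 brighter ones had -0.22, where all brighter genes had -0.10. Replicate 1 of 6 h was the highest of the 18 arrays for 20 of the 62 dim channel genes (32.3%) and for 29.1% of all dim genes, and replicate 3 of 9 h for 15 (24.2%, against 25.3%). The part of these arrays in the changes of dim genes was not tested for each gene, and counts without them are given with the other settings.

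**Figure D2:**
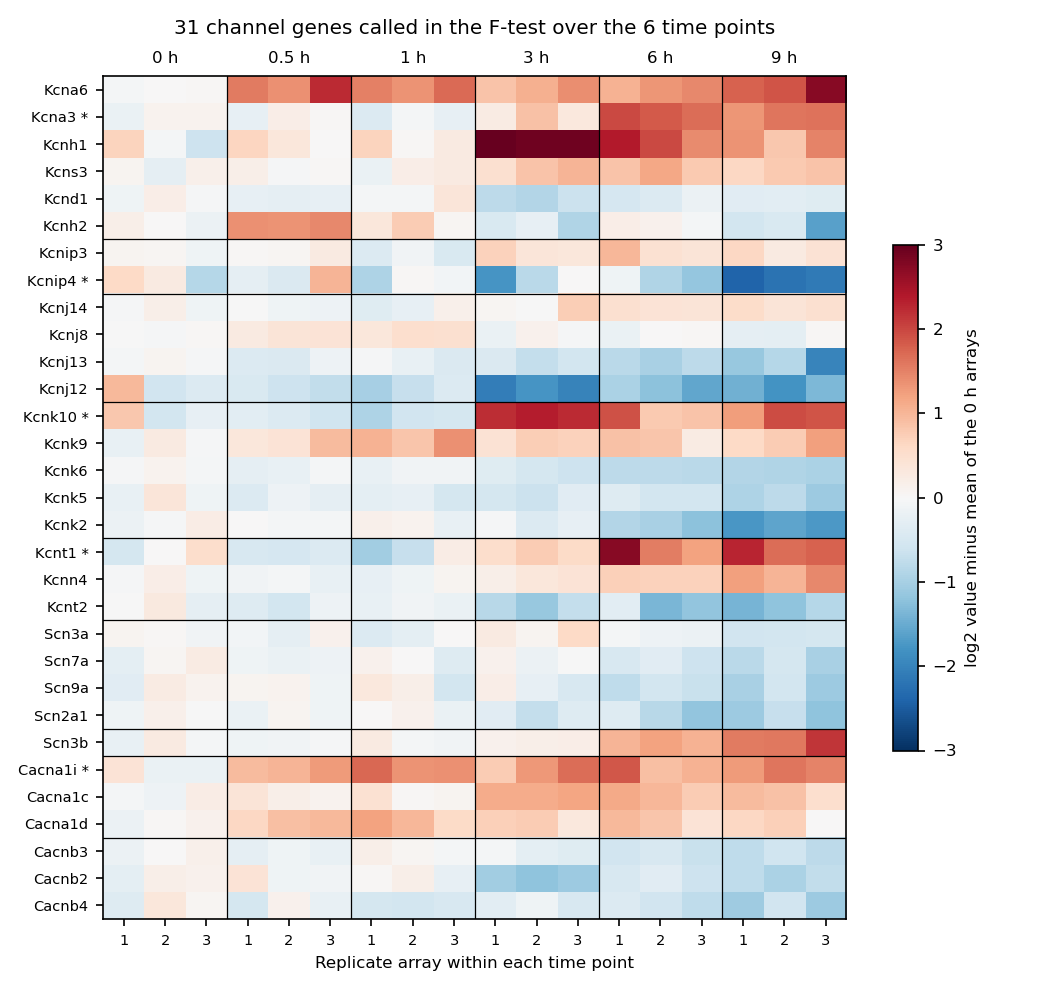
Of the channel genes called in the F-test, 31 (rows, grouped by family) on each of the 18 arrays (columns, by time). Colour is the log2 level minus the gene's mean at 0 h, on a scale from -3 to 3, and an asterisk marks a gene not well above background on all 18 arrays. Most changes first stand out in the 3 h, 6 h and 9 h columns.

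Among the voltage-gated potassium alpha subunits, 8 of 27 tested were called in the F-test. The largest change of the family was that of Kcnh1, an ether-a-go-go channel gene. Its level at 0 h was -2.57, -3.31 and -3.85 on replicates 1, 2 and 3, in the order used for all arrays below, and by 1 h it was -2.58, -3.20 and -2.97. The 3 h arrays read 0.18, -0.33 and -0.32, those of 6 h -0.86, -1.27 and -1.82, and those of 9 h -1.90, -2.44 and -1.75. All 3 arrays of 3 h, of 6 h and of 9 h were above every array of 0 h, and the level was highest at 3 h. The change from 0 h to 3 h was 3.08 ± 0.32 (SE, log2, 8.47-fold, limma adjusted p = 4.18e-05), and at 9 h 1.21 remained (2.31-fold, limma adjusted p = 0.0108). From 1 h to 3 h, times that share a scan day, the change was 2.76 (limma adjusted p = 0.000205).

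Kcna6, a member of the Shaker-related family like the juxtaparanodal channels, was higher at every time after 0 h. Its level was -4.72, -4.66 and -4.64 on the 0 h arrays and -3.11, -3.31 and -2.43 on those of 0.5 h. The 3 h arrays read -3.82, -3.60 and -3.27, those of 9 h -2.90, -2.79 and -1.95. No array after 0 h reached down to the 0 h arrays. The change was 1.73 ± 0.25 at 0.5 h (SE, log2, 3.31-fold, limma adjusted p = 0.00188) and 2.13 at 9 h (4.37-fold, limma adjusted p = 4.19e-05). Kcna3, the channel known from T cells and microglia, moved later. The 0 h arrays read -5.57, -5.27 and -5.26, while those of 6 h read -3.38, -3.53 and -3.69 and those of 9 h -4.05, -3.76 and -3.74. The 6 h and 9 h arrays were all above the 0 h arrays, by 1.84 ± 0.17 at 6 h (SE, log2, 3.57-fold, limma adjusted p = 8.7e-06). At 1 h Kcna3 was not well above background on any array, and 6 h was at least 3.96-fold higher than 1 h (limma adjusted p = 5.28e-06).

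Other called members of the family were smaller in change or dimmer. Kcns3, a silent subunit that modifies other voltage-gated channels, had levels of -1.27, -1.62 and -1.20 at 0 h and -0.50, -0.20 and -0.58 at 6 h, a rise of 0.93 (limma adjusted p = 0.00126). Kcnd1, a gene of the rapidly inactivating channels, fell by 0.76 at 3 h (limma adjusted p = 0.00145), and all 3 arrays of 3 h were below those of 0 h. Kcnh2, the channel of cardiac repolarization, changed in both directions: it rose by 1.39 at 0.5 h (2.62-fold, limma adjusted p = 0.0111), from -4.31, -4.49 and -4.66 to -3.12, -3.14 and -3.04, and fell by 0.89 at 9 h (limma adjusted p = 0.0212). Its call at 0.5 h did not hold under quantile normalization, under normexp or in the deposited matrix.

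**Figure D3:**
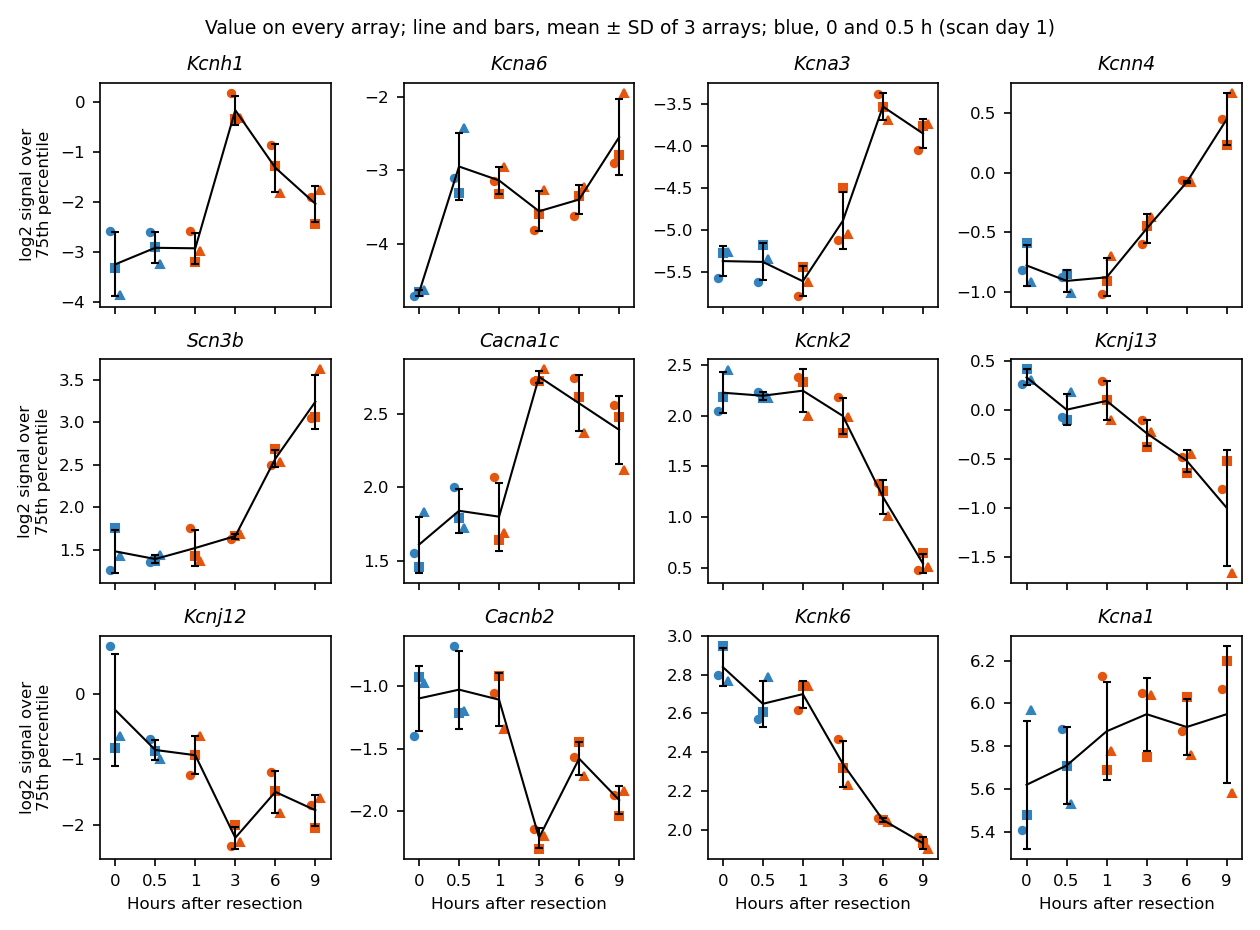
Level of 12 channel genes (log2 signal relative to the array's 75th percentile) against time after resection (h). Circles, squares and triangles are replicates 1, 2 and 3, the line joins the means with bars of 1 SD over 3 arrays, and blue marks 0 h and 0.5 h, the times of the earliest scan day. Kcnh1 peaks at 3 h, Kcna3 at 6 h and Scn3b and Kcnn4 at 9 h, while Kcnk2 and Kcnj13 are lowest at 9 h and the arrays of Kcna1 at 0 h and 9 h overlap.

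Kcna1 and Kcna2, the bright probes of axonal channels, were not called in the F-test. Kcna1 had levels of 5.41, 5.48 and 5.97 at 0 h and, 9 h after surgery, of 6.07, 6.2 and 5.58, so that the arrays overlap. Its change at 9 h was 0.33 (F-test of limma, adjusted p = 0.485). A second probe was called higher at 9 h, at 0.70 (limma adjusted p = 0.0312), with overlapping arrays and without a call in the F-test, so Kcna1 has no settled call at 9 h. For Kcna2 the change at 9 h was -0.27 (F-test of limma, adjusted p = 0.313). Kcng1, a silent subunit, was not well above background on any 0 h array and was at least 2.05-fold higher at 6 h (limma adjusted p = 0.038), but the call was lost in most fits with an array left out and also with quantile normalization, the median shift, normexp, the replicate block, array weights, the deposited matrix, dim probes kept in, the 2 times fitted alone and 3 arrays dropped together. At 6 h against 1 h, Kcng3 was at least 3.08-fold higher (limma adjusted p = 0.0143) and Kcnv1 at least 2.04-fold (limma adjusted p = 0.00972), both silent subunits that were not well above background at 1 h. Neither was called in the F-test. Kcnv1 was detected on all 3 arrays of 0 h and of 3 h, with means of -5.13 and -5.14 against -4.49 at 6 h. Kcng3 had all 3 arrays well above background only at 6 h and 9 h. These 6 h contrasts were not followed with single arrays left out.

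Of the auxiliary subunits of these channels, 2 of 9 tested were called in the F-test. Kcnip4, a calcium-binding partner of Kcnd channels, was detected on all 3 arrays of 0 h and on none of 9 h, and was at least 4.17-fold lower at 9 h (limma adjusted p = 0.00383). Kcnip3, which also acts as a transcriptional repressor, was 0.61 higher at 6 h (limma adjusted p = 0.0138), but not called under quantile normalization, the median shift or in the deposited matrix. Without replicate 1 of 6 h its change was 0.42, and without replicate 3 of 0 h it was 0.54, neither called. The beta subunits of the Kcna channels were not called by their brightest probes: Kcnab1 changed by -0.68 at 9 h and Kcnab2 by 0.94 at 3 h, with F-test adjusted p-values from limma of 0.206 and 0.191. The change of Kcnab1 at 9 h was called in 11 of 33 alternatives, with values from -0.95 to -0.52 over all of them. A second Kcnab1 probe was called in the F-test (limma adjusted p = 0.0284) and at 9 h, at -0.89 (limma adjusted p = 0.00314), so Kcnab1 has no settled call.

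Inward rectifiers, which hold the membrane near the potassium equilibrium, gave 4 calls among 9 tested genes in the F-test. Kcnj13, known from ion-transporting epithelia, went from 0.26, 0.41 and 0.30 at 0 h to -0.81, -0.52 and -1.66 at 9 h. It fell by 1.33 (log2, 2.51-fold lower, limma adjusted p = 0.000462), and the lowest of the 9 h arrays was replicate 3. Kcnj12, a strong rectifier of muscle and heart, had a level of 0.73, -0.83 and -0.65 at 0 h, while the 3 h arrays read -2.33, -2.01 and -2.26 and the 9 h arrays -1.70, -2.05 and -1.60. Replicate 1 of 0 h stood above the other 0 h arrays, yet all later 3 h and 9 h arrays were below all of 0 h. The change at 3 h was -1.95 ± 0.32 (SE, log2, 3.87-fold lower, limma adjusted p = 0.00119). Without replicate 1 of 0 h it was -1.46 (limma adjusted p = 0.000776). Kcnj11, the pore of channels closed by ATP, had the same high array, with 0.72, -1.38 and -1.32 at 0 h, and its change at 3 h of -1.52 (limma adjusted p = 0.0431) became -0.83 without that array (limma adjusted p = 0.118) and was also lost without most of the others. Kcnj8, its relative of vascular smooth muscle, was 0.44 higher at 1 h (limma adjusted p = 0.0357), with arrays of 3.00, 3.16 and 3.13 against 2.65, 2.63 and 2.7. This call was lost when any array of 0 h or 1 h, or replicate 2 of 0.5 h, was left out, with values between 0.40 and 0.48. It was also lost with the median shift (0.29), with normexp (0.33), with dim probes kept in, with the 2 times fitted alone and with skeletal muscle markers as a covariate. Kcnj14 was called in the F-test and between 1 h and 9 h, where the change was 0.63 (limma adjusted p = 0.0157).

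The two-pore channels carry leak currents, and 5 of 11 tested were called. Kcnk2, which opens with membrane stretch and lipids, fell most. On the 0 h arrays it was 2.05, 2.19 and 2.45, by 1 h 2.39, 2.34 and 2, and on the 3 h arrays 2.19, 1.83 and 1.99. It then went to 1.34, 1.26 and 1.01 (6 h) and to 0.48, 0.64 and 0.51 (9 h). The 6 h arrays lay below all earlier arrays, and the 9 h arrays below those of 6 h. The change was -1.03 at 6 h (limma adjusted p = 0.000134) and -1.69 ± 0.14 at 9 h (SE, log2, 3.23-fold lower, limma adjusted p = 1.77e-06). Against 1 h, the 9 h change was -1.70 (limma adjusted p = 2.41e-06).

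Kcnk6, a weakly rectifying leak channel, went from 2.80, 2.95 and 2.77 at 0 h to 1.96, 1.93 and 1.90 at 9 h, without overlap. It fell by 0.91 ± 0.09 (SE, log2, 1.88-fold, limma adjusted p = 7.36e-06), and its second probe, printed above, changed by -0.63 (limma adjusted p = 0.024). Kcnk5, which responds to alkaline pH, went from 2.27, 2.86 and 2.38 to 1.57, 1.72 and 1.42 at 9 h, or 1.91-fold lower (limma adjusted p = 0.000356). The acid-sensitive Kcnk9 moved the other way. It was at -2.22, -1.73 and -2.03 at 0 h and at -0.94, -1.15 and -0.63 at 1 h, a rise of 1.09 (2.12-fold, limma adjusted p = 0.0142), which was not called without replicate 1 of 0 h (0.97) or replicate 3 of 1 h (0.95). Kcnk10, a relative of Kcnk2 with the same kinds of stimuli, was detected on 1 of 3 arrays at 0 h. Its level was -5.97, -7.35 and -7.03 there and -4.57, -4.44 and -4.56 at 3 h, and all 3 h arrays were higher. Against 1 h, where it was not well above background, 3 h was at least 2-fold higher (limma adjusted p = 0.000178). Only 3 h and 9 h had all 3 arrays of Kcnk10 well above background. Its place in the test and its rise thus rest on the same arrays. Kcnk18 was not well above background at 0 h and at least 1.25-fold higher at 9 h (limma adjusted p = 0.0326), but most fits with an array left out ended the call, as did quantile normalization, the deposited matrix, normexp, testing without a filter on dim probes, and a trended, robust prior. Only 9 h had all 3 arrays of Kcnk18 well above background. The arrays called higher are thus those that put it into the test, and no rise is read from this call. Kcnk1 and Kcnk4 were not called (F-test of limma, adjusted p = 0.119 and 0.336), though Kcnk1 was called higher at 3 h in 7 of 33 alternatives, with values from 0.40 to 0.76 over all of them.

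Among the calcium- and sodium-activated potassium channel genes, 3 of 10 were called. Kcnn4, the intermediate-conductance calcium-activated channel of red cells and immune cells, rose. The 0 h arrays read -0.82, -0.59 and -0.92 and the 1 h arrays -1.02, -0.91 and -0.70. The level then climbed through -0.60, -0.45 and -0.37 (3 h) and -0.06, -0.08 and -0.08 (6 h) to 0.45, 0.23 and 0.67 (9 h). All arrays of 6 h were above those of 3 h and below those of 9 h. The change was 0.70 at 6 h (limma adjusted p = 0.00108) and 1.23 ± 0.12 at 9 h (SE, log2, 2.34-fold, limma adjusted p = 1.11e-05), and from 1 h to 9 h it was 1.33 (limma adjusted p = 7.93e-06). The sodium-activated channel genes moved in opposite directions. Kcnt2 went from -3.84, -3.53 and -4.11 at 0 h to -5.23, -5.03 and -4.69 at 9 h, a change of -1.15 (2.23-fold lower, limma adjusted p = 0.00263). Kcnt1, detected on 1 of 3 arrays at 0 h and on none at 1 h, was at least 1.61-fold higher at 9 h than at 1 h (limma adjusted p = 0.000436), and its call against 0 h was lost in the deposited matrix. Only 6 h and 9 h had all 3 arrays of Kcnt1 well above background, so it entered the test through its higher times. Neither Kcnma1, the large-conductance calcium-activated channel, nor its smooth-muscle beta subunit Kcnmb1 was called (F-test of limma, adjusted p = 0.701 and 0.234).

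Sodium channel alpha subunits form the pore, and 4 of the 7 tested were called, all of them lower at 9 h, where 34.6% of all gene names were called in the F-test and 15.4% were lower at 9 h. The 4 called genes are neighbours in the genome. The probes of Scn3a, Scn2a1, Scn1a, Scn9a and Scn7a lie on chromosome 3 of rn4 within 1137 kb, from 47496272 (Scn3a) to 48633743 (Scn7a), and the 4 of these genes that were tested are the 4 called lower. Against 1 h, 3 of the 7 tested alpha subunits were called lower at 9 h, as were 13.7% of all gene names. Scn10a and Scn11a, channels of pain-sensing neurons on chromosome 8, were not called (F-test of limma, adjusted p = 0.382 and 0.688), and Scn11a was not well above background on any 0 h array. Whether these genes differ from those of chromosome 3 was not tested.

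Scn2a1, a channel of unmyelinated axons and early nodes, went from -2.96, -2.69 and -2.86 at 0 h to -3.94, -3.53 and -4.04 at 9 h, with no overlap. The change was -1.0 ± 0.19 (SE, log2, 2-fold lower, limma adjusted p = 0.00134), and its second probe gave -0.97 (limma adjusted p = 0.00053). Scn7a codes for a sodium-sensing relative known from Schwann cells. It went from 5.20, 5.56 and 5.74 to 4.70, 4.97 and 4.53 at 9 h, and the 9 h arrays were all below the 0 h arrays, by 0.77 ± 0.16 (1.7-fold, limma adjusted p = 0.00291). The median change of the 14 Schwann cell markers at 9 h was -0.27, and the part of Schwann cell RNA in this change was not tested. Scn9a, a channel of pain-sensing and sympathetic neurons, went from -1.32, -0.72 and -0.86 to -1.94, -1.51 and -2.06 at 9 h. That change was -0.87 ± 0.24 (SE, log2, limma adjusted p = 0.0117), but it was not called without replicate 2 (-0.74) or 3 (-0.82) of 0 h or without replicate 1 (-0.82) or 3 (-0.76) of 9 h. Scn3a, an embryonic channel known to return in injured sensory neurons, went from 0.52, 0.47 and 0.33 at 0 h to -0.14, -0.11 and -0.08 at 9 h, and fell by 0.55 ± 0.14 (SE, log2, 1.46-fold, limma adjusted p = 0.0082). From 1 h to 3 h it had risen by 0.56 (limma adjusted p = 0.022), and its change at 9 h was -0.52 and not called when 3 arrays (replicate 1 of 0 h and of 6 h, replicate 3 of 9 h) were left out together. All 4 stayed below 0 at 9 h under every alternative fitted, and none was called with normexp background correction.

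The beta subunits anchor and modulate the pore. Scn3b was the only one of 3 tested to be called, and it rose. It was at 1.26, 1.75 and 1.43 on the 0 h arrays, at 1.76, 1.43 and 1.37 on those of 1 h and at 1.62, 1.66 and 1.68 on those of 3 h. The 6 h arrays read 2.50, 2.69 and 2.53 and the 9 h arrays 3.05, 3.06 and 3.62. The arrays up to 3 h overlapped, the 6 h arrays were above all of them, and the 9 h arrays above those of 6 h. The change was 1.09 at 6 h (2.14-fold, limma adjusted p = 0.00025) and 1.76 ± 0.16 at 9 h (SE, log2, 3.4-fold, limma adjusted p = 4.02e-06), and 1.72 from 1 h to 9 h (limma adjusted p = 6.82e-06).

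**Figure D4:**
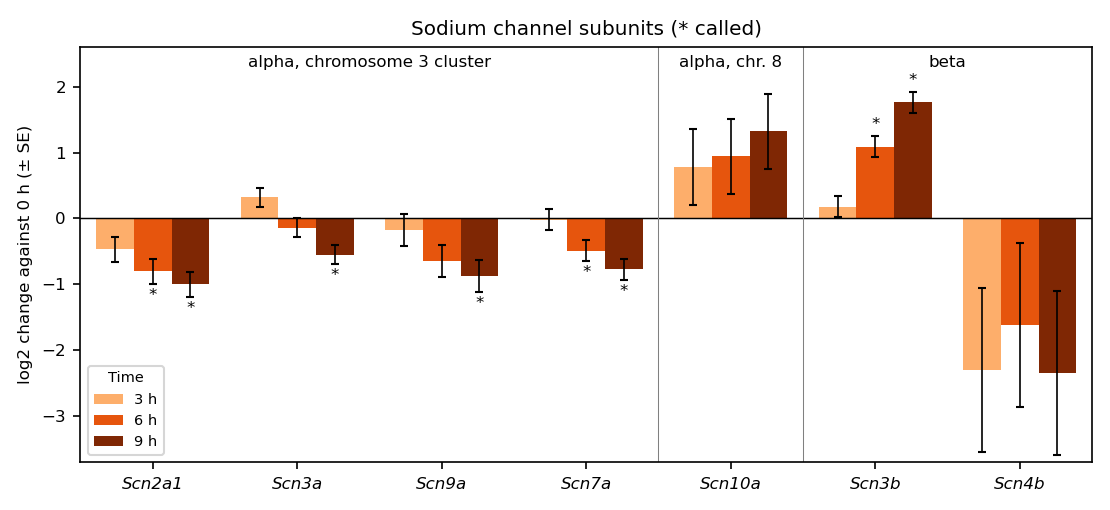
Change of 7 tested sodium channel genes at 3 h, 6 h and 9 h against 0 h (log2, bars with 1 SE from the limma fit, 3 arrays a time point), grouped as the chromosome 3 cluster, Scn10a of chromosome 8 and the beta subunits. Asterisks mark called changes. All 4 genes of the chromosome 3 cluster are lower at 9 h, by at least 0.55, and Scn3b is higher by 1.76.

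By their brightest probes, the calcium channel pore genes were called higher against 0 h or not called. At 9 h, 3 of the 8 tested were called higher against 0 h (background 15.8%) and 1 against 1 h (background 11.7%). Cacna1c, the L-type channel of smooth muscle and heart, had a level of 1.55, 1.46 and 1.83 on the 0 h arrays and of 2.07, 1.64 and 1.69 on those of 1 h. The 3 h arrays read 2.72, 2.72 and 2.80, the 6 h arrays 2.74, 2.61 and 2.37, and the 9 h arrays 2.56, 2.48 and 2.12. The arrays of 3 h, 6 h and 9 h were all above the 0 h and 1 h arrays. The change was 1.13 ± 0.15 at 3 h (SE, log2, 2.19-fold, limma adjusted p = 0.000265) and 0.77 at 9 h (limma adjusted p = 0.00169). Cacna1i, a low-voltage-activated channel, was detected on 1 of 3 arrays at 0 h and on all 3 at 9 h, with levels of -6.05, -6.68 and -6.67 and then -5.20, -4.87 and -4.98, so that all 9 h arrays were higher (limma adjusted p = 0.00113), while 2 of the 3 baseline values were not well above background and no fold is given. For Cacna1d, another L-type channel, the 3 probes disagreed. The brightest rose by 0.92 at 1 h (limma adjusted p = 0.0244), and the next brightest, printed above, changed by 0.10 and was not called in the F-test. The dimmest was called lower at 3 h, at -0.72 (limma adjusted p = 0.0371), where 2 of 3 arrays were well above background. The call of the brightest was lost when any single array of 0 h, or replicate 1 or 2 of 1 h, was left out, with values from 0.78 to 0.99, and also with the median shift (0.77), with normexp (0.84) and with skeletal muscle markers as a covariate (0.84), so Cacna1d has no settled direction. Cacna1a, Cacna1b and Cacna1h were not called (F-test of limma, adjusted p = 0.838, 0.731 and 0.285).

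The auxiliary calcium channel subunits gave 3 calls in 13 tested genes, all of them beta subunits, which carry the pore to the membrane, and all lower, against 34.6% of all gene names called in the F-test and 15.4% lower at 9 h. Against 1 h, 2 of the 13 tested were called lower at 9 h (background 13.7%). Cacnb2 went from -1.40, -0.93 and -0.98 at 0 h to -2.14, -2.30 and -2.20 by 3 h, was at -1.57, -1.45 and -1.72 by 6 h, and ended at -1.87, -2.04 and -1.84. Its lowest arrays were those of 3 h, where the change was -1.11 ± 0.16 (SE, log2, 2.16-fold lower, limma adjusted p = 0.000535). Cacnb3 went from 5.45, 5.63 and 5.77 at 0 h to 4.86, 5.02 and 4.84 at 9 h, a change of -0.71 (1.63-fold lower, limma adjusted p = 0.000266). Cacnb4 was at -4.21, -3.50 and -3.77 at 0 h and at -4.89, -4.40 and -4.92 at 9 h, a change of -0.91 (1.88-fold lower, limma adjusted p = 0.00338). The 9 h arrays of all 3 genes were below all arrays of 0 h, while Cacnb2 and Cacnb4 were not called with normexp background correction.

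Some channel genes were highest on the arrays that were highest in skeletal muscle markers, and the part of muscle RNA in their values was not tested. The mean level of 15 skeletal muscle markers was highest on replicate 1 of 0 h (6.39), replicate 1 of 6 h (4.45) and replicate 2 of 3 h (4.10), and went down to -3.46 at 9 h. None of the 15 markers was called in the F-test. The 3 highest arrays of Cacna2d1, Cacng1 and Scn4b were these same arrays, which is 3 of 99 channel genes (3.03%) and was the case for 0.632% of all genes tested. Cacng1, the gamma subunit of the skeletal muscle channel, was at 1.41 on replicate 1 of 0 h and at -3.56 and -2.82 on the other 0 h arrays. Scn4b was at 3.19, -1.50 and -0.83 and Cacna2d1 at 4.35, 2.18 and 1.94 on the same arrays. Neither Scn4b nor Cacna2d1 was called in the F-test (limma adjusted p = 0.334 and 0.285). With the muscle level as a covariate, the change of Kcnj12 at 3 h was -1.68 and that of Kcnj11 was -1.07 (limma adjusted p = 0.0774).

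**Figure D5:**
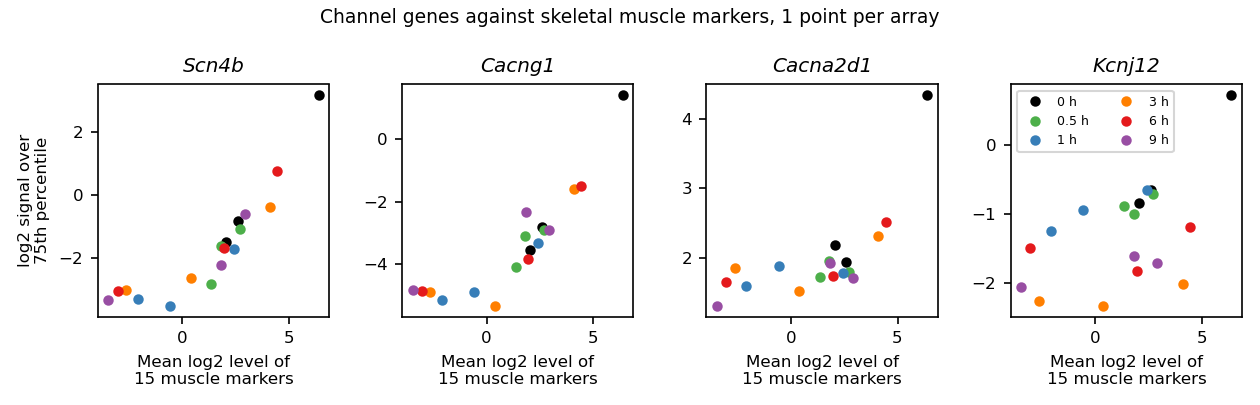
Level of Scn4b, Cacng1, Cacna2d1 and Kcnj12 on each array (vertical axis, log2 relative to the array's 75th percentile) against the mean level of 15 skeletal muscle markers on the same array (horizontal axis, same scale). Replicate 1 of 0 h, with a marker level of 6.39, is the highest array in each panel.

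The proteins that anchor, regulate or balance these channels were taken as a separate list of 48 genes, of which 43 were tested and 14 called in the F-test, where 34.6% of all gene names were called. At 9 h 4 were higher and 8 lower (15.8% and 15.4% of all gene names). Cntn2, the adhesion protein that holds Kcna channels beside the node, went from -2.19, -1.96 and -2.10 at 0 h to -3.77, -3.76 and -3.56 at 9 h, a change of -1.61 (limma adjusted p = 5.23e-06). Nrcam, an adhesion protein of the node, went from 0.86, 1.18 and 1.35 to 2.06, 1.91 and 1.86, a change of 0.82 (limma adjusted p = 0.000225). Ank3, the nodal anchor of sodium channels, changed by -0.63 (limma adjusted p = 0.00305). The groups of 0 h and 9 h did not overlap for Cntn2, Nrcam or Ank3.

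Of the 33 channel genes called in the F-test, 7 were called under all 32 alternatives in which they were fitted. They include Cacna1c, Kcnh1, Kcnn4 and Scn3b, which rose, and Kcnj13 and Kcnk2, which fell. These were detected on all 18 arrays.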

How the data were processed

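RNA of the proximal sciatic nerve stump was measured on 18 Agilent arrays, 3 at each of 6 time points, and groups were taken from the sample labels. The authors deposited scanner output of Feature Extraction 10.5.1.1, whose processed signal is a background-subtracted linear intensity, and a matrix of log2 values, used as an alternative. The log2 of the processed intensity minus each array's 75th percentile was analysed here. Control and outlier spots were left out and the spots of a probe averaged. The 32111 probes with all 3 arrays of some time point well above background were fitted with limma 3.58.1 in R 4.3.3 (lmFit, eBayes, F-test and contrasts), which was tested on simulated data. The number of arrays limits the precision.

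Members and lists were chosen with earlier results of these data known. Genes were named by 3 rules: up to 3 per family called, detected on all 18 arrays and apart from 0 h, by size of change; genes not detected at 0 h and called later; and channels known from axon, Schwann cell or vessel wall. Values of some members are not reported here, though they remain in the counts. Other named genes were chosen after their values were seen. A bound ("at least") sets the brighter group's mean against the lowest signal well above background. Alternatives were other scalings (quantile, median), normexp, the deposited matrix, filters, blocks, array weights, thresholds, muscle level as covariate and leaving out arrays.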

Additional observations from a re-analysis of the deposited data

How the results depend on the processing

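Dim probes and 3 arrays a time point limit these results. Of 1736 values of single genes under alternative settings, 1562 kept their direction and side of the threshold, 140 lost a call, 27 gained one and 7 reversed. The causes were not tested. With normexp background correction the F-test called 11 members, and the 5 contrasts with 0 h, in order of time, called 0, 0, 4, 9 and 11, and those with 1 h called 1, 6 and 8. With an adjusted p under 0.05 and a 2-fold change, the numbers were 19 in the F-test, then 3, 8, 14 and 20 from 1 h on against 0 h, and 4, 9 and 10 against 1 h. At 0.5 h 2 were called with quantile normalization, 2 in the deposited matrix and 8 with array weights. At 1 h 5 were called with the median shift, 4 without a filter on dim probes, 5 with the muscle covariate and 18 with only the arrays of both time points, a fit that gave 6 for 3 h against 1 h. Detection on all 18 arrays left 57 members. The median of all genes shifted by up to 0.44 at 3 h with normexp and by -0.16 at 9 h with the median shift.

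Leaving out 1 array at a time gave 28 to 37 calls in the F-test, 2 to 6, 2 to 10, 11 to 18, 20 to 28 and 26 to 39 in the contrasts with 0 h in order of time, and 9 to 14, 18 to 25 and 22 to 29 in those with 1 h, with 99 to 100 members detected. The calls at 0.5 h fell to 2 without replicate 2 or 3 of 0 h or any array of 0.5 h. Those at 1 h numbered 2, 3 and 4 when replicates 1, 2 and 3 of 0 h were left out in turn, 3, 5 and 3 for those of 1 h, and 5 for replicate 2 of 0.5 h. Leaving out replicate 1 of 0 h, replicate 1 of 6 h and replicate 3 of 9 h together, an alternative chosen after seeing the data, gave 35 calls in the F-test, of which 27 were shared, 25 at 6 h, 29 at 9 h and 30 at 6 h against 1 h. Values that reversed belonged to genes that were not called: Cacna1a at 1 h (-0.01 with quantile normalization and in the deposited matrix), Cacna1b at 6 h (0.00 without replicate 3 of 6 h, while leaving out other arrays kept it negative, down to -0.60), Kcnk4 at 9 h (-0.07 with quantile normalization, -0.08 with normexp, -0.07 in the deposited matrix) and Kcnma1 at 3 h (0.91 with normexp).

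The replicate numbers were not taken to pair the samples, because no label ties them to a shared animal or batch and deviations of same-numbered arrays correlated between -0.26 and 0.564 (median 0.071 over 45 pairs, against 0.00671 over 90 pairs of different numbers). As a hint from the data, 11 of 18 arrays correlated best with their own number. With the replicate block 35 members were called in the F-test, 5, 9, 16, 28 and 33 against 0 h in order of time, and 13, 22 and 29 against 1 h. With scan day as a block 6 were called at 0.5 h, and 14, 22 and 24 in the contrasts with 1 h. The slide as a random block gave 34 in the F-test, a fit that cannot separate slide from time, since no slide was shared between time points.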
